A study of Mus musculus with 12 samples.

Results

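The organic solute carriers and the drug-exporting ABC transporters move drugs, metabolites, urate, prostaglandins and lipids across the membranes of kidney cells. Their genes were taken here as every row of the deposited count table whose symbol began with Slc22a, Slco, Slc47a, Abcb, Abcc or Abcg followed by a digit. The rule gave 51 of 23378 genes, after 1 symbol ending in -ps was left out. The Slc22a family had 18 members, the Slco family 9, the Slc47a family 1, the Abcb family 9, the Abcc family 10 and the Abcg family 4. The rule used symbols alone and no measured value.

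As background, the Slc22 family holds organic cation, carnitine, organic anion and urate transporters, most of which drive uptake. The Slco genes encode organic anion transporting polypeptides (OATPs), which take up prostaglandins, steroid conjugates and thyroid hormones. Slc47a1 encodes the proton-coupled exporter MATE1, which passes organic cations into the urine. The ABC transporters use ATP to export their substrates, and include P-glycoprotein, the multidrug resistance proteins (MRPs) and sterol exporters, while a few Abcb members work in mitochondria or lysosomes and Abcc8 and Abcc9 are subunits of potassium channels. In the kidney the secretion of organic anions and cations is a task of the proximal tubule, and the macula densa is known for salt sensing and for the release of prostaglandin E2, a substrate of several of these proteins.

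The cells came from the kidney cortex of C57BL/6 mice of the nNosCreERT2-mTmG genetic model, which all groups shared. In these mice neuronal nitric oxide synthase (nNOS) sequences drive a Cre recombinase that tamoxifen switches on, and a reporter changes from membrane tdTomato (red) to membrane GFP (green) in cells where it has acted. The green cells sorted from the digest are called macula densa cells here, and those with the strongest red signal control cells, intended as epithelium of the distal tubule and collecting duct. Each population was taken from mice on control diet or from mice kept for 14 days on low salt diet while drinking water with 150 mg/L of the ACE inhibitor enalapril (low salt/enalapril below). This gave 4 groups: control cells on control diet (4 libraries), control cells on low salt/enalapril (4), macula densa cells on control diet (2) and macula densa cells on low salt/enalapril (2). The labels give neither age nor sex, and do not say whether libraries came from separate animals, so the p-values measure the spread between these samples only. Low salt and enalapril were given together, so their effects cannot be told apart.

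Total counts per library ranged from 4259020 to 14856542, of which 788 to 2478 fell on the transporters. Levels are given in CPM, the usual depth-normalised count of edgeR, here relative to library totals scaled by trimmed means of M values (TMM), and 3 counts were worth 0.231 to 0.734 CPM. The summed CPM of 6 macula densa markers was 2151 to 3087 in the green cells and 44.6 to 434 in the red cells. Most of each sum was Slc12a1, also a thick limb marker, at 1769 to 2026 CPM in green and 41.8 to 430 CPM in red cells. Nos1 measured 100 to 232 CPM in green and 0.109 to 0.735 CPM in red cells. Pappa2 and Ptgs2 also separated the populations, while the ranges of Ptges and Avpr1a over all libraries overlapped. Markers of podocytes (41.1 to 1362 CPM for 6 genes) and endothelium (50.1 to 1513 CPM for 8 genes) were also present in the red cells. Control-cell library 4 on control diet stood apart, with the lowest podocyte and endothelium sums among the control cells and the highest sum of 7 principal cell markers, 808 CPM. Proximal tubule markers (12 genes) summed to 46.8 to 242 CPM over all libraries, so every library held proximal tubule transcripts.

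Of the 51 transporters, 33 had enough counts to be tested, and 18 did not. The tested ones were 12 of 18 Slc22a, 4 of 9 Slco, 1 of 1 Slc47a, 7 of 9 Abcb, 7 of 10 Abcc and 2 of 4 Abcg genes, with 55 to 3346 counts in all 12 libraries together. The untested genes were Slc22a3, Slc22a19, Slc22a21, Slc22a22, Slc22a26, Slc22a28, Slco1a1, Slco1c1, Slco2b1, Slco4c1, Slco5a1, Abcb4, Abcb11, Abcc6, Abcc8, Abcc12, Abcg3 and Abcg4, with 10 to 74 counts in total. The highest count of any untested gene in a library was 43, for Slco1a1. Slco2a1, Abcc4, Abcc1 and Abcc5 together took 48.8% of the transporters' CPM. Per kilobase of exon, the scale on which genes can be compared, the mean level over all 12 libraries was highest for Abcc4 at 3.39 CPM per kilobase. Other high levels were 2.32 for Slco2a1, 1.92 for Slco4a1, 1.73 for Abcc5, 1.42 for Abcc1, 1.35 for Slc22a5 and 1.28 for Slc22a12, in CPM per kilobase. The order differed between groups: among macula densa cells on low salt/enalapril Slco4a1 led with 4.71 CPM per kilobase and Slco2a1 was at 0.10, whereas Slco2a1 stood at 3.20 in control cells on the same diet.

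**Figure D1:**
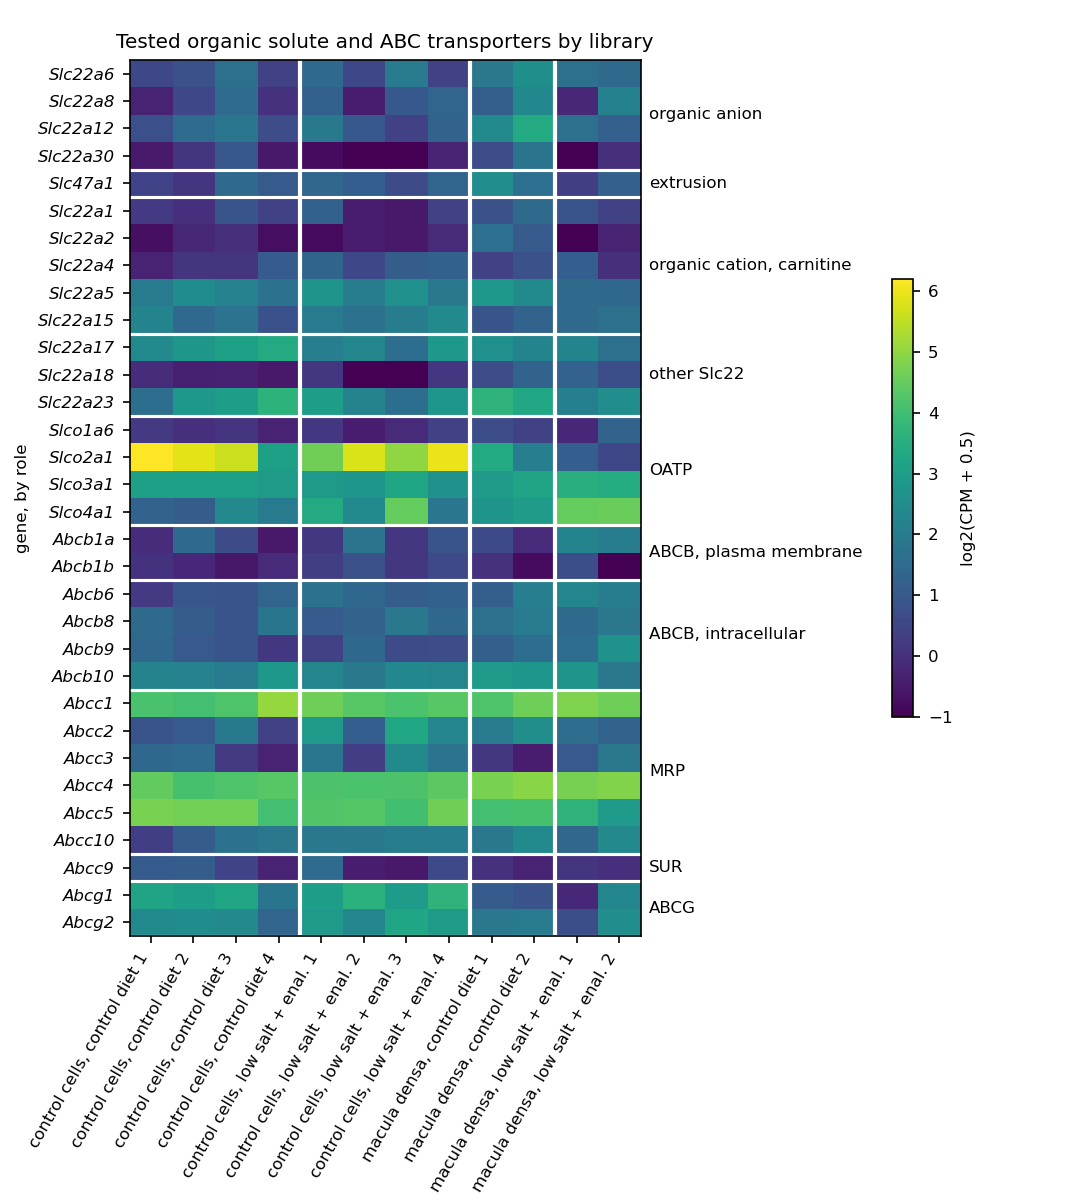
Level of the tested transporters reported here (rows, ordered by role) in each of the 12 libraries (columns, grouped by cell population and diet), as log2 of CPM plus 0.5 on the colour scale. Abcc1 and Abcc4 were bright in every library, and Abcc5 in all but macula densa library 2 on low salt/enalapril. Slco2a1 was bright in 7 of 8 control-cell libraries and dark in the macula densa libraries on low salt/enalapril.

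The promoters of 3 genes that differed between the cell populations (below) are shown, as the called genes with the highest levels per kilobase that have an entry in the RefSeq promoter table (mouse build GRCm38.p6). Slco2a1 and Abcc5 were lower and Abcc4 was higher in macula densa cells. Each runs 5′ to 3′ from upstream of a start of transcription in that table to just past it. The Slco2a1 window lies inside the annotated span of the gene (102988712 to 103096002), not at its first base. For Abcc4 the first of 2 listed starts is shown. Capitals mark matches to 2 short motifs searched on both strands, the antioxidant response element TGACNNNGC (reverse complement GCNNNGTCA) and the xenobiotic response element GCGTG (reverse complement CACGC).
Slco2a1 promoter, chr9:103008237-103008536, plus strand: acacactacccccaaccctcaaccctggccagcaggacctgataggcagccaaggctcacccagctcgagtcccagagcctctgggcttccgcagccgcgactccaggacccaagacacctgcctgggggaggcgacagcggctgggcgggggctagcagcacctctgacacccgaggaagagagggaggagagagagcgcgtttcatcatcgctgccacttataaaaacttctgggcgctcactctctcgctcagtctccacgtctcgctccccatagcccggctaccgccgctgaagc
Abcc4 promoter, chr14:118706170-118706469, minus strand: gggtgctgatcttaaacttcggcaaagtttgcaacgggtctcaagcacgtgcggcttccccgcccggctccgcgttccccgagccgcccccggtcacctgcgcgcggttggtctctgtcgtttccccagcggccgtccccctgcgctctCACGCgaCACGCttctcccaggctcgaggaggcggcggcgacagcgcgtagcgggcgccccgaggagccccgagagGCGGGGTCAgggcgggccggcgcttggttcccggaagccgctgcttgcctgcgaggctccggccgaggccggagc
Abcc5 promoter, chr16:20426345-20426644, minus strand: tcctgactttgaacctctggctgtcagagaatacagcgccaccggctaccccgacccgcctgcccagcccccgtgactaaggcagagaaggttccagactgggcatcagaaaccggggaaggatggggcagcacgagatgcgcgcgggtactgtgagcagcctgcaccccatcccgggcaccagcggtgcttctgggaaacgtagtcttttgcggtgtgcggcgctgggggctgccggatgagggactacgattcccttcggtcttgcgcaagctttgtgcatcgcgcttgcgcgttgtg
The Abcc4 promoter held 1 match to the antioxidant response element and 2 to the xenobiotic response element, and the other promoters shown held none of either. Among all 46 promoters listed for 38 of the transporters, 7 (15.2%) held the antioxidant motif, against 12.4% of 32851 promoters of the same length in the table. The xenobiotic motif was in 10 (21.7%), against 32.4% of the table. The motif of the proximal tubule regulator HNF4 (CAAAGTCCA, reverse complement TGGACTTTG) had 0 matches among the transporters' promoters, against 0.475% of the table. With a motif that rare, 0 of 46 promoters cannot tell the transporters apart from the table. These are matches of letters in the windows listed, not tested binding sites.

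The main question of the design was how macula densa cells differ from the control cells. A gene was called where its p-value from the edgeR quasi-likelihood test, adjusted with the Benjamini-Hochberg method over all 14180 genes tested, was under 0.05. Averaged over both diets, 6 of the 33 transporters were called (18.2%, against 21.3% of all genes). Slc22a18, Abcc4 and Abcb9 were higher in macula densa cells (9.09%, against 7.48% of all genes), and Slco2a1, Abcg1 and Abcc5 were lower (9.09%, against 13.9%). On control diet 1 transporter was called, Slc22a12, which was higher (3.03%, against 6.61% of all genes called and 2.69% called higher). On low salt/enalapril 1 was called, Slco2a1, which was lower (3.03%, against 7.27% of all genes called and 4.13% called lower). The shares of called transporters were near or under those of all genes. The groups did not overlap on control diet for 11 of the 33 transporters (33.3%, against 31.9% of all genes). On low salt/enalapril this held for 13 (39.4%, against 34.8%). The median log2 fold change of the tested transporters was 0.35 averaged over both diets, against -0.06 for all genes, and 21 of 33 were above 0, against 46.0% of all genes. On control diet the transporters' median was 0.56 with 20 of 33 above 0, and on low salt/enalapril it was 0.15 with 18 of 33 above 0. Scaling by library totals alone moved the median of all genes from -0.06 to 0.14 in the averaged comparison. It then called 10 transporters, 8 higher and 2 lower, where TMM called 3 in each direction, and over all genes it called 1827 higher and 1450 lower instead of 1061 and 1966.

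**Figure D2:**
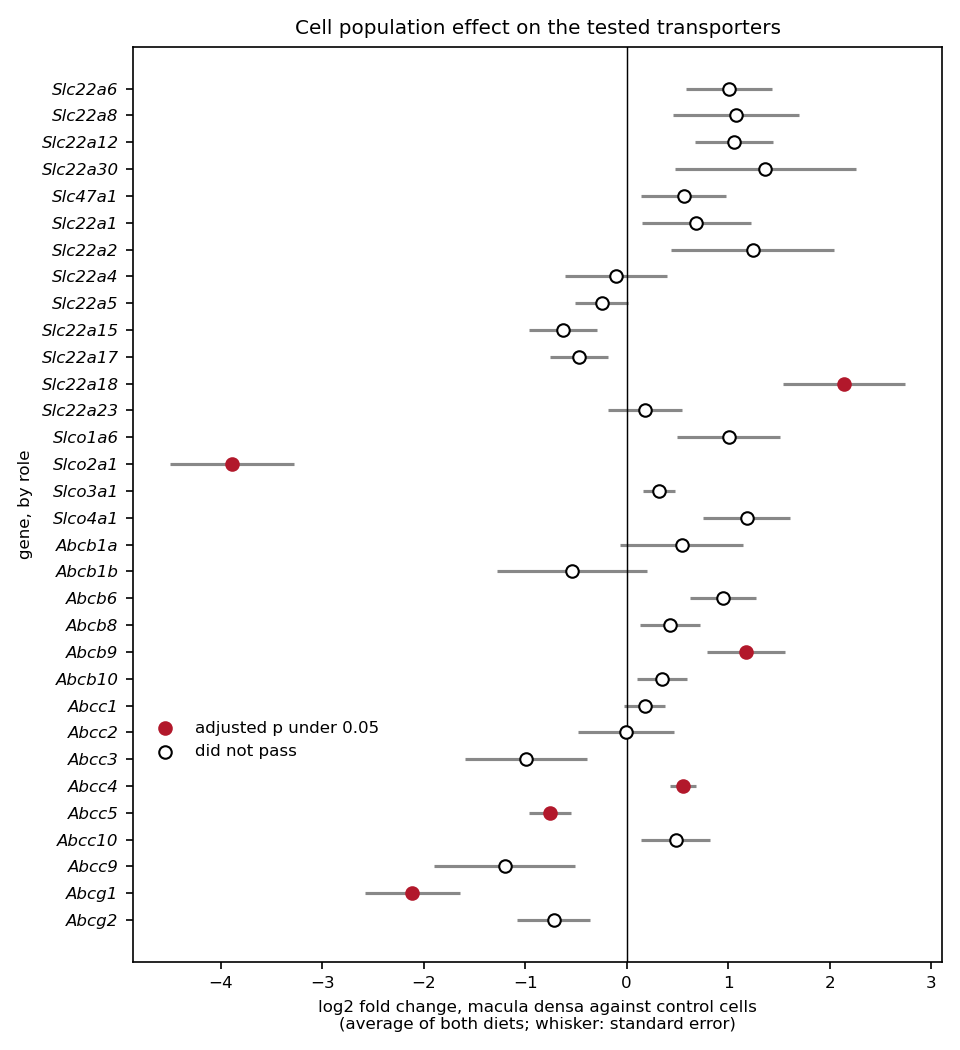
Log2 fold change of the tested transporters in macula densa against control cells, averaged over both diets, with its standard error as a whisker. Filled points passed an edgeR adjusted p of 0.05: Slco2a1, Abcg1 and Abcc5 lie left of 0, and Slc22a18, Abcb9 and Abcc4 right of it.

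Averaged over both diets, the OATP gene Slco2a1 had the largest log2 fold change of the tested transporters between the populations. Slco2a1, the prostaglandin transporter that takes up prostaglandin E2 for breakdown, lies on chromosome 9 from 102988712 to 103096002 on the plus strand. Its exons overlap the antisense gene n-R5s89, as those of 11 of the 51 transporters overlap an antisense gene, and without a known strand setting such counts are uncertain. It measured 72.8, 58.8, 48.5 and 8.06 CPM in control cells on control diet and 24.6, 54.4, 31.3 and 62.9 CPM in control cells on low salt/enalapril. The macula densa libraries had 9.95 and 3.75 CPM on control diet and 1.72 and 0.984 CPM on low salt/enalapril. All macula densa libraries were under 7 of the 8 control-cell libraries, and control-cell library 4 on control diet fell between the macula densa libraries on that diet. Averaged over both diets the log2 fold change was -3.89 ± 0.61 (SE, edgeR adjusted p 0.00123), and it was -4.07 without control-cell library 4 on control diet. On low salt/enalapril it was -5.0 ± 0.94 (SE, edgeR adjusted p 0.00992), with no overlap between the groups, as for 34.8% of all genes. On control diet it was -2.79 ± 0.77 (SE, edgeR adjusted p 0.0506), which did not pass. Leaving out macula densa library 1 or 2 on low salt/enalapril raised the adjusted p for that diet to 0.0524 and 0.113. In such fits, and in every fit here without a macula densa library, 1 macula densa library stands for its group and is assumed to vary like the other groups.

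Endothelium markers moved with Slco2a1. All 8 were called lower in macula densa cells averaged over both diets, and none was at 0 in all libraries of a group. Their sum was 1513, 1244, 824 and 50.1 CPM in control cells on control diet and 350, 908, 265 and 1174 CPM on low salt/enalapril. In macula densa cells it was 171 and 23.8 CPM on control diet and 13.4 and 10.3 CPM on low salt/enalapril. The library with the lowest sum among the control cells was the one with the lowest Slco2a1. The lower level in macula densa cells was not particular to endothelium. Podocyte markers summed to 41.1 to 1362 CPM in control cells and 18.9 to 159 CPM in macula densa cells, with 5 of 6 called lower. Of the tested markers of mesangium and fibroblasts 4 of 6, and of leukocytes 3 of 4, were called lower averaged over both diets. Per 100 CPM of endothelium markers, Slco2a1 measured 4.73 to 16.1 CPM in control cells on control diet and 5.35 to 11.8 on low salt/enalapril, and 5.81 to 15.8 and 9.53 to 12.9 in macula densa cells on the same diets. These ranges overlapped in all 4 groups. In sorted bulk samples, fewer cells of a type and less RNA per cell cannot be told apart, and the part of endothelial transcripts in the Slco2a1 difference was not tested further.

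**Figure D3:**
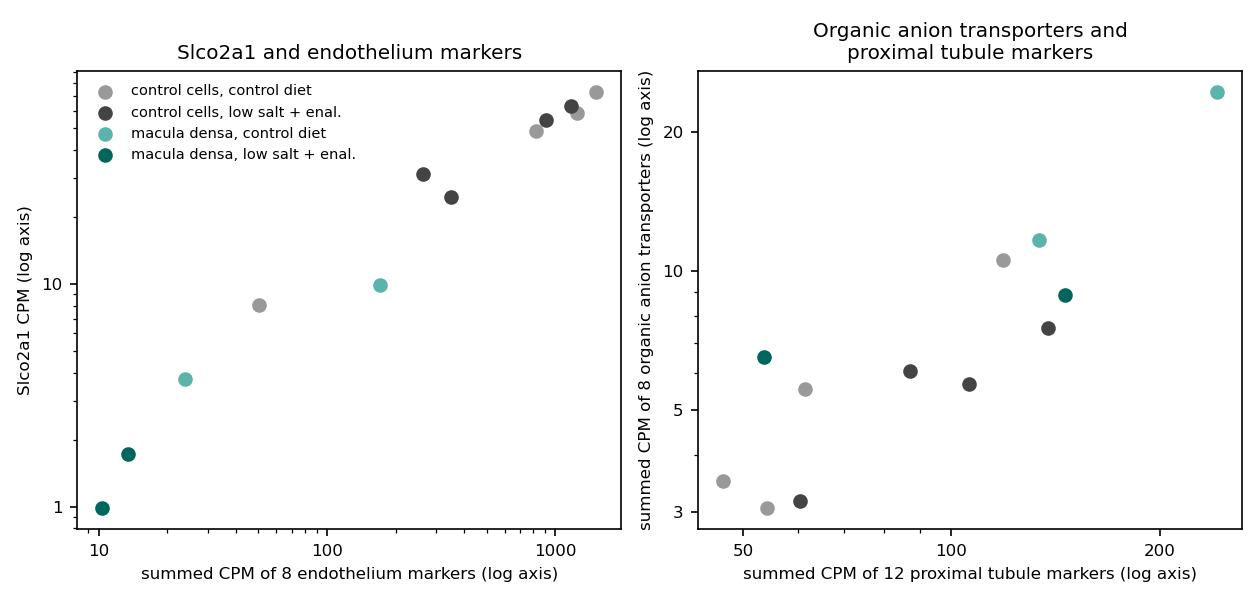
Left, Slco2a1 CPM against the summed CPM of 8 endothelium markers, and right, the summed CPM of 8 organic anion transporters against that of 12 proximal tubule markers, 1 point per library on log axes, coloured by group. Libraries with high marker sums had high transporter levels in both panels, and the groups lie along a common band; no correlation was tested.

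The other tested OATPs did not pass. Slco4a1, which takes up thyroid hormone and other organic anions, measured 1.97, 1.69, 4.76 and 3.31 CPM in control cells on control diet and 6.05 and 7.25 CPM in macula densa cells. It measured 10.1, 4.90, 22.1 and 3.05 CPM in control cells and 22.2 and 23.0 CPM in macula densa cells on low salt/enalapril. The macula densa libraries were above all control-cell libraries of their diet, narrowly above the 22.1 CPM of control-cell library 3 on low salt/enalapril. Such separation on both diets held for 13.6% of all genes. The averaged log2 fold change of 1.18 ± 0.43 (SE) had an edgeR adjusted p of 0.0674. Slco3a1 measured between 5.90 and 11.1 CPM in every library, and Slco1a6 between 0.245 and 1.97 CPM.

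In the ABCG family, Abcg1 was lower in macula densa cells. Abcg1, an exporter of cholesterol to lipoproteins, lies on chromosome 17 from 31057675 to 31117988 on the plus strand. Control cells had 8.64, 7.70, 8.95 and 2.996 CPM on control diet and 7.53, 11.5, 7.35 and 12.4 CPM on low salt/enalapril. Macula densa cells had 1.64 and 1.30 CPM on control diet and 0.383 and 4.43 CPM on low salt/enalapril. The low salt/enalapril values were 2 and 27 counts, the first under the 3 counts worth 0.575 CPM in that library. The groups did not overlap within either diet, which held for 4 of the 33 transporters and for 13.6% of all genes. The averaged log2 fold change was -2.11 ± 0.47 (SE, edgeR adjusted p 0.00831), and it was -1.69 without macula densa library 1 on low salt/enalapril and -3.43 without library 2. Per 100 CPM of endothelium markers Abcg1 ranged from 0.571 to 5.98 CPM in control cells on control diet and from 0.957 to 5.48 CPM in macula densa cells on control diet. The same ranges on low salt/enalapril were 1.06 to 2.78 and 2.86 to 42.9 CPM. Abcg2, a urate and drug exporter, was between 1.15 and 8.82 CPM in all libraries and did not pass (averaged log2 fold change -0.72 ± 0.36 SE, edgeR adjusted p 0.182).

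The MRPs went in both directions. Abcc4 (MRP4), an exporter of cyclic AMP, urate and prostaglandins, lies on chromosome 14 from 118482692 to 118706219 on the minus strand. It measured 21.8, 16.8, 18.2 and 19.5 CPM in control cells on control diet and 17.8, 17.4, 17.9 and 20.4 CPM on low salt/enalapril. Macula densa cells had 26.4 and 29.9 CPM on control diet and 25.7 and 28.2 CPM on low salt/enalapril. Every macula densa library was above every control-cell library. The difference was small and even across libraries: the averaged log2 fold change was 0.56 ± 0.13 (SE, edgeR adjusted p 0.0105), and 0.56 and 0.55 on control diet and on low salt/enalapril. Without macula densa library 2 on control diet the averaged call was lost, at an adjusted p of 0.0614.

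Abcc5 (MRP5), an exporter of cyclic nucleotides, lies on chromosome 16 from 20331303 to 20426394 on the minus strand. Control cells had 26.6, 24.99, 24.8 and 16.0 CPM on control diet and 18.3, 19.1, 15.5 and 24.3 CPM on low salt/enalapril. Macula densa cells had 16.1 and 16.7 CPM on control diet, and 12.3 and 6.89 CPM on low salt/enalapril. Both macula densa libraries on low salt/enalapril were under all control-cell libraries, and on control diet they overlapped control-cell library 4. The averaged log2 fold change was -0.76 ± 0.21 (SE, edgeR adjusted p 0.0222). The call was lost without macula densa library 1 or 2 on control diet or library 2 on low salt/enalapril (adjusted p 0.0663, 0.0722 and 0.0929), and with library totals alone (0.113).

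Abcc1 (MRP1), which exports glutathione conjugates and leukotriene C4, was at 16.1 to 32.5 CPM in every library and had an averaged log2 fold change of 0.18 ± 0.20 (SE). Abcc2 (MRP2), an apical exporter of conjugates, and Abcc3 (MRP3), its basolateral counterpart, did not pass between cell populations, nor did Abcc10. The mean levels of Abcc9, the sulfonylurea receptor SUR2 and the channel subunit with enough counts to test, were 1.12 ± 0.66 and 0.964 ± 1.02 CPM (SD, n = 4) in control cells on control diet and on low salt/enalapril. In macula densa cells they were 0.419 ± 0.132 and 0.533 ± 0.058 CPM (SD, n = 2).

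Within the ABCB family, 1 of 7 tested members was called averaged over both diets, where 21.3% of all genes were called. Abcb9, a lysosomal peptide transporter, lies on chromosome 5 from 124061530 to 124095798 on the minus strand. It measured 2.19, 1.503, 1.33 and 0.620 CPM in control cells on control diet and 0.845, 2.20, 1.05 and 1.12 CPM on low salt/enalapril. Macula densa cells had 1.74 and 2.52 CPM on control diet and 2.49 and 5.91 CPM on low salt/enalapril. The groups overlapped on control diet and not on low salt/enalapril, where 34.8% of all genes did not overlap either. The averaged log2 fold change was 1.18 ± 0.38 (SE) with an edgeR adjusted p of 0.0468, and it was called in 9 of the 21 alternative analyses that tested it. The call was lost without any of 8 of the 12 libraries, with adjusted p up to 0.230 without macula densa library 2 on low salt/enalapril. Exons of Abcb9 overlap the antisense gene Gm34086, so its count is uncertain.

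Other ABCB transporters inside the cell, Abcb6, Abcb8 and Abcb10, had averaged log2 fold changes of 0.95 ± 0.32, 0.43 ± 0.29 and 0.35 ± 0.24 (SE), and none of them passed (edgeR adjusted p 0.0547, 0.335 and 0.346). Exons of Abcb6 overlap the same-strand gene Gm29253 and those of Abcb10 the antisense gene Gm45890, so both counts are uncertain. P-glycoprotein is encoded in mice by Abcb1a and Abcb1b, related copies whose shared reads the counting could have divided. Abcb1a also overlaps the antisense gene Gm42686. Abcb1a had 0.207 to 4.21 CPM and Abcb1b at most 1.22 CPM in a library, and their sum did not pass between cell populations either (averaged log2 fold change 0.27 ± 0.47 SE, edgeR adjusted p 0.727).

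**Figure D4:**
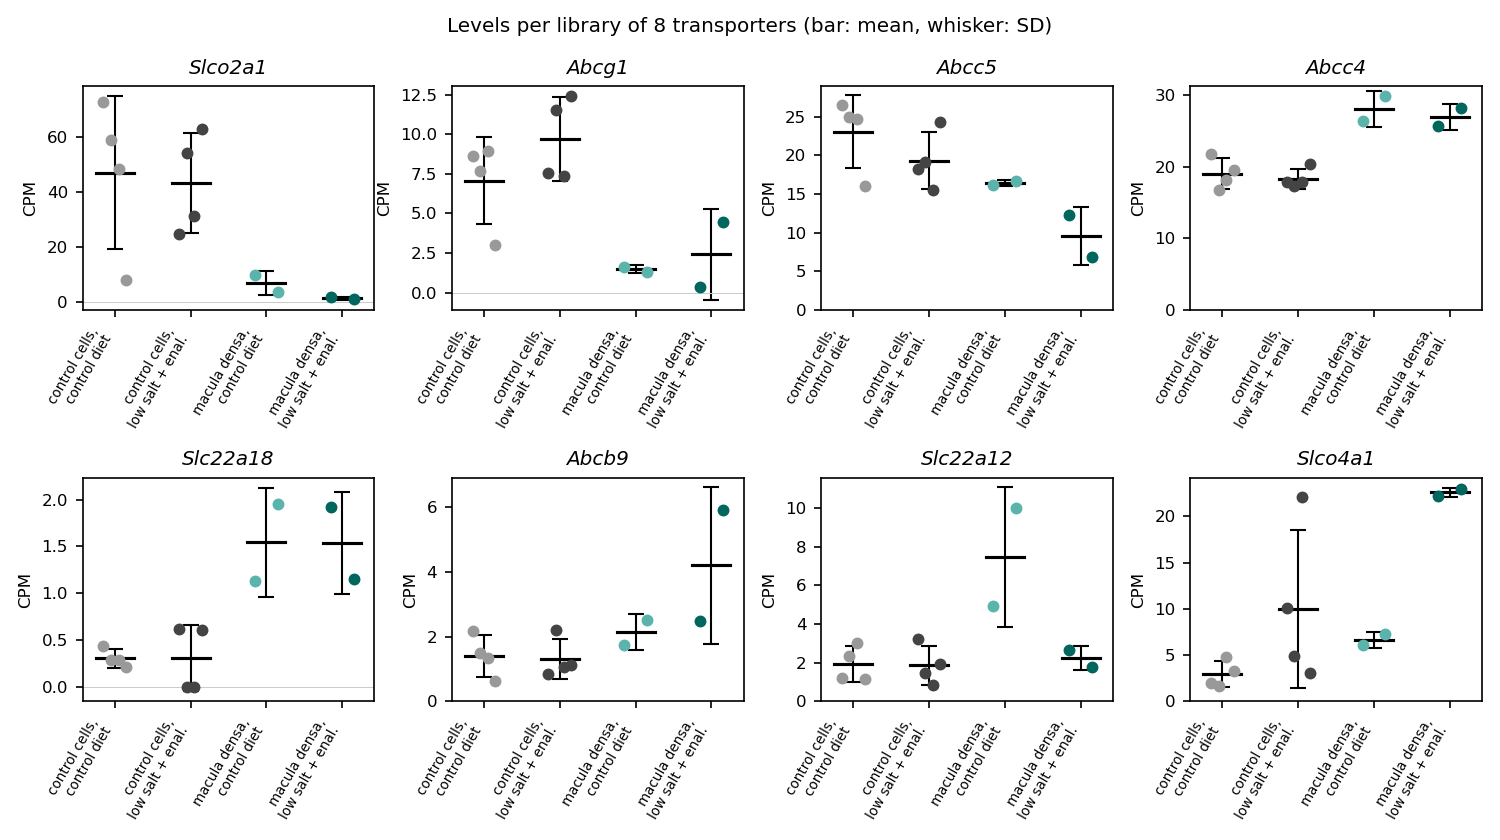
CPM per library (points) of the 7 transporters called between cell populations and of Slco4a1 in the 4 groups, with the mean as a bar and the SD as a whisker. The macula densa points of Abcc4 lie above all control-cell points, while those of Abcb9 overlap them on control diet.

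In the Slc22 family, Slc22a18 was called averaged over both diets and Slc22a12 on control diet. Slc22a18, an orphan member whose gene is imprinted, lies on chromosome 7 from 143473736 to 143499334 on the plus strand. It had 0.437, 0.282, 0.286 and 0.207 CPM in control cells on control diet and 0.615, 0, 0 and 0.610 CPM on low salt/enalapril, which were 0 to 8 counts a library. Macula densa cells had 1.13 and 1.96 CPM on control diet and 1.92 and 1.15 CPM on low salt/enalapril, which were 7 to 24 counts. All macula densa libraries were above all control-cell libraries. The averaged log2 fold change was 2.14 ± 0.60 (SE, edgeR adjusted p 0.0249), and the adjusted p was 0.105 without macula densa library 2 on control diet and 0.0755 without library 1 on low salt/enalapril.

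Slc22a12 (URAT1), which takes urate back from the tubule fluid, lies on chromosome 19 from 6535845 to 6543032 on the minus strand, a chromosome that holds 8 of the 51 transporters. Its exons overlap the antisense gene Nrxn2, so its count is uncertain. It measured 1.20, 2.35, 3.05 and 1.14 CPM in control cells on control diet and 4.92 and 10.02 CPM in macula densa cells on that diet. The groups did not overlap, as for 31.9% of all genes, and the log2 fold change was 1.94 ± 0.50 (SE, edgeR adjusted p 0.0407). On low salt/enalapril it measured 3.23, 1.47, 0.840 and 1.93 CPM in control cells and 2.68 and 1.80 CPM in macula densa cells, and did not pass (log2 fold change 0.18 ± 0.58 SE). The control-diet call was lost without either macula densa library on control diet (adjusted p 0.0733 without library 1 and 0.352 without library 2). In these fits the remaining macula densa library is again assumed to vary like the other groups. The call was also lost without control-cell libraries 1, 2 or 3 on control diet or 2 or 4 on low salt/enalapril (0.0508 to 0.0852).

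The other organic anion transporters tested did not pass. Slc22a6 (OAT1), the basolateral carrier for p-aminohippurate, measured 0.984, 1.22, 2.67 and 0.827 CPM in control cells on control diet and 3.08 and 5.46 CPM in macula densa cells, a log2 fold change of 1.57 ± 0.57 (SE, edgeR adjusted p 0.114). Slc22a8 (OAT3) and Slc22a30 had log2 fold changes of 1.6 ± 0.84 and 1.72 ± 0.93 (SE) on that diet, with adjusted p of 0.273 and 0.285. The summed CPM of the 8 organic anion transporters in the table was 3.06 to 10.6 in control cells on control diet and 11.7 and 24.4 in macula densa cells. Proximal tubule markers moved with it: their sum was 54.2, 61.5, 118 and 46.8 CPM in those control cells and 134 and 242 CPM in those macula densa cells. Of those 12 markers, 12 had a positive log2 fold change on control diet and 1 was called higher, Slc5a12. Per 100 CPM of proximal tubule markers, the organic anion transporters summed to 5.65 to 9.02 CPM in control cells and 8.74 to 10.1 CPM in macula densa cells on control diet, which overlapped. Slc22a12 itself was at 2.22 to 3.82 and 3.68 to 4.14 CPM per 100 CPM of those markers. The part of proximal tubule transcripts in these differences was not tested further.

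The 5 tested organic cation and carnitine carriers were not called between cell populations in either diet. The untested Slc22a3 and Slc22a21 had 4 and 26 counts in control cells on low salt/enalapril, and 0 and 0 in macula densa cells. Slc22a2 (OCT2), the basolateral cation carrier of the proximal tubule, had 0.109, 0.376, 0.476 and 0.103 CPM in control cells on control diet and 2.56 and 1.55 CPM in macula densa cells. The groups did not overlap, as for 31.9% of all genes, but the test did not pass (edgeR adjusted p 0.0544). The DESeq2 Wald test and limma voom called Slc22a2. Slc47a1 (MATE1) measured 0.875, 0.564, 2.29 and 1.55 CPM in those control cells and 5.23 and 2.607 CPM in those macula densa cells (log2 fold change 1.55 ± 0.54 SE, edgeR adjusted p 0.104). Slc22a17, a receptor for lipocalin 2, and Slc22a23, an orphan member, had averaged log2 fold changes of -0.47 ± 0.29 and 0.18 ± 0.37 (SE) and did not pass.

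Between the diets, no transporter was called in macula densa cells. The edgeR test called 0 of 33 (0% of all genes), and the DESeq2 Wald test and limma voom also called 0. At an unadjusted p under 0.05 edgeR gave 10 of the 33 transporters (30.3%), against 11.2% of all genes. Of the 10, 7 were lower on low salt/enalapril (Slc22a2, Slc22a5, Slc22a12, Slc22a30, Slc47a1, Slco2a1 and Abcc5), which is 21.2% of the tested transporters against 5.73% of all genes. Another 3 were higher (Slco4a1, Abcb1a and Abcc3), 9.09% against 5.51%. The median log2 fold change of the transporters was -0.06 and that of all genes -0.02.

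Among the cation and carnitine carriers, Slc22a5, Slc22a2 and Slc47a1 had lower values on low salt/enalapril in both macula densa libraries. Slc22a5 (OCTN2), the sodium-coupled carnitine carrier, measured 6.67 and 4.81 CPM on control diet and 2.30 and 2.13 CPM on low salt/enalapril (log2 fold change -1.37 ± 0.44 SE, edgeR unadjusted p 0.00876, adjusted p 0.312). Slc22a2 had 44 counts on control diet (2.56 and 1.55 CPM) and 2 on low salt/enalapril (0 and 0.328 CPM), a ratio of 11.3 with a counting interval from 2.95 to 96.3 (edgeR unadjusted p 0.0113, adjusted p 0.325). Slc47a1 measured 5.23 and 2.607 CPM on control diet and 0.766 and 1.80 CPM on low salt/enalapril (log2 fold change -1.58 ± 0.69 SE). None of these groups overlapped, as for 18 of the 33 transporters and 40.6% of all genes in this comparison of 2 against 2 libraries.

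Among the organic anion transporters, Slc22a12, Slc22a30 and Slc22a6 had lower values in both macula densa libraries on low salt/enalapril than in both on control diet, and none passed. Slc22a8 overlapped, at 1.74 and 4.64 CPM on control diet and 0.383 and 3.94 CPM on low salt/enalapril. The untested Slc22a19 had 1 and 1 counts on control diet and 4 and 1 on low salt/enalapril. Slc22a12 went from 4.92 and 10.02 CPM to 2.68 and 1.80 CPM (log2 fold change -1.74 ± 0.64 SE, edgeR unadjusted p 0.0181, adjusted p 0.360). Slc22a30 had 47 counts on control diet and 3 on low salt/enalapril, a ratio of 8.05 with a counting interval from 2.59 to 40.4. The untested OATP gene Slco1a1 had 45 and 1 counts, a ratio of 23.1 (counting interval 3.94 to 933), and 43 of the 45 were in macula densa library 2 on control diet, the library with the most proximal tubule marker transcripts. Of the 12 proximal tubule markers, 0 had a positive log2 fold change between the diets in macula densa cells, with a median of -1.01, and 0 were called. Their sum was 134 and 242 CPM on control diet and 53.6 and 146 CPM on low salt/enalapril. Per 100 CPM of these markers the groups overlapped for the summed organic anion transporters (8.74 to 10.1 against 6.07 to 12.1 CPM), Slc22a12 (3.68 to 4.14 against 1.24 to 5.0), Slc22a5 (1.99 to 4.99 against 1.46 to 4.29) and Slc47a1 (1.08 to 3.91 against 1.24 to 1.43). Slc22a2 did not overlap on that scale, at 0.640 to 1.92 against 0 to 0.225 CPM per 100 CPM. The part of proximal tubule transcripts in these diet differences was not tested further.

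Slco2a1 and Abcc5, with the values given above, had log2 fold changes of -2.34 ± 0.95 and -0.78 ± 0.33 (SE) between the diets in macula densa cells (edgeR adjusted p 0.398 and 0.414). Of the 8 endothelium markers, 0 had a positive log2 fold change in that comparison, with a median of -2.75, and 0 were called; their part in the Slco2a1 difference was not tested. Slco4a1, Abcb1a and Abcc3 were higher on low salt/enalapril in macula densa cells at the unadjusted threshold. Slco4a1 rested on 6.05 and 7.25 CPM against 22.2 and 23.0 CPM (log2 fold change 1.76 ± 0.72 SE, edgeR unadjusted p 0.0301, adjusted p 0.398). A fit of the macula densa libraries alone called it, together with 0.927% of all genes in that fit, and was the 1 alternative that called a transporter between diets. Abcb1a measured 1.03 and 0.407 CPM on control diet and 4.21 and 3.61 CPM on low salt/enalapril (log2 fold change 2.45 ± 0.99 SE, edgeR adjusted p 0.398). Summed with Abcb1b it had a log2 fold change of 2.15 ± 0.78 (SE, edgeR adjusted p 0.355). Abcc3 measured 0.616 and 0.244 CPM on control diet and 1.53 and 3.12 CPM on low salt/enalapril, which were 9 counts in the 2 control-diet libraries. Abcc4 had a log2 fold change of -0.06 ± 0.21 (SE) between the diets.

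**Figure D5:**
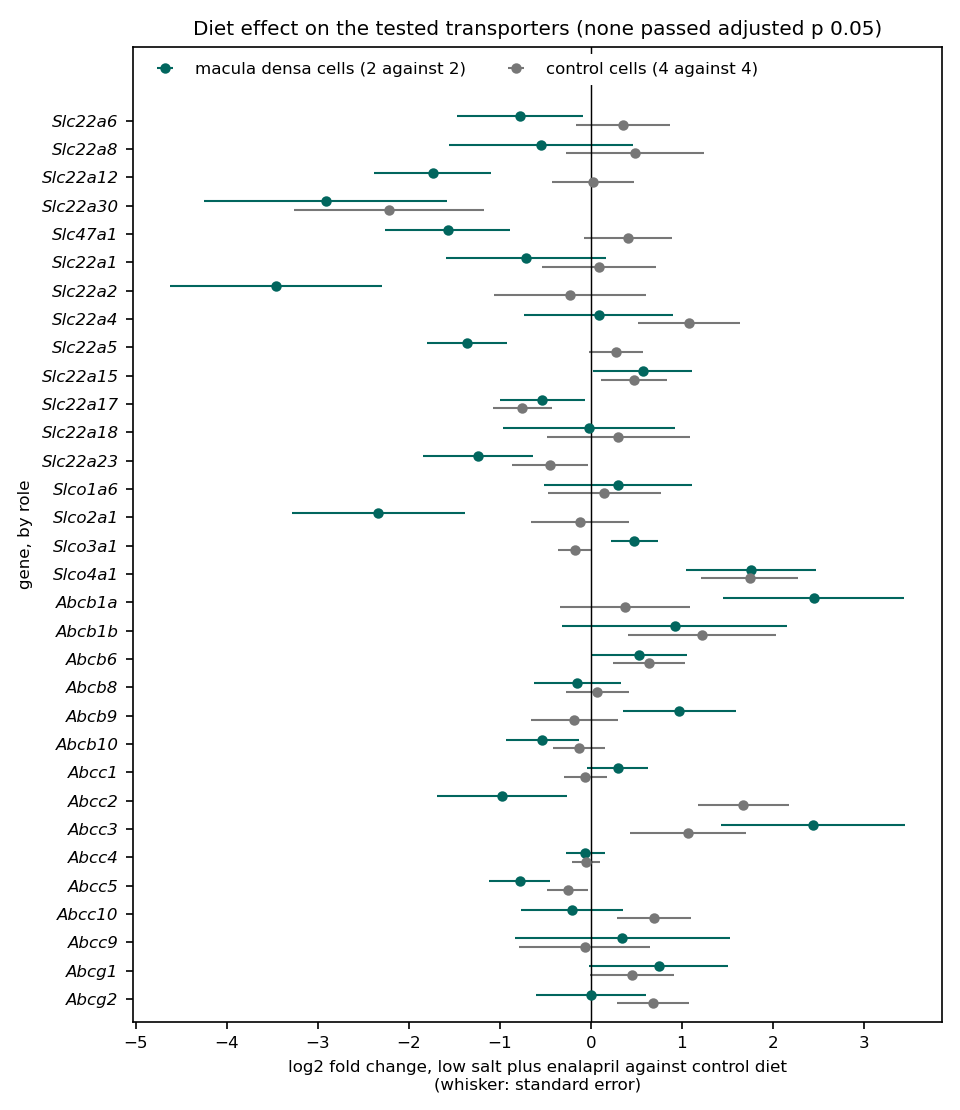
Log2 fold change of the tested transporters between low salt/enalapril and control diet, with its standard error as a whisker, in macula densa cells (2 against 2 libraries) and control cells (4 against 4). No point passed an adjusted p of 0.05; Slco4a1 had nearly the same value in both populations, and Abcc2 lay on opposite sides of 0.

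In control cells the edgeR test between diets also called 0 of the 33 transporters, against 0.00705% of all genes (1 gene), and the DESeq2 Wald test and limma voom called 0. At an unadjusted p under 0.05 there were 3 (9.09%, against 6.45% of all genes). Abcc2 measured 1.31, 1.597, 3.24 and 0.827 CPM on control diet and 6.84, 1.71, 9.45 and 4.37 CPM on low salt/enalapril, with overlap between the groups (log2 fold change 1.68 ± 0.50 SE, edgeR unadjusted p 0.00539, adjusted p 0.543). Slco4a1, with the values given above, had a log2 fold change of 1.75 ± 0.53 (SE, edgeR unadjusted p 0.00649, adjusted p 0.563), and control-cell libraries 1 and 3 on low salt/enalapril were the high ones for both genes. These 2 libraries also stood apart in other markers: podocyte markers summed to 132 and 213 CPM there against 1065 and 890 CPM in libraries 2 and 4, and endothelium markers to 350 and 265 against 908 and 1174 CPM. Thick limb markers (7 genes) summed to 745 and 964 CPM in libraries 1 and 3 and to 477 and 316 CPM in libraries 2 and 4. The part of this cell content in the Abcc2 and Slco4a1 values was not tested. Slc22a17 measured 4.92, 6.48, 7.999 and 10.02 CPM on control diet and 3.69, 4.41, 2.52 and 6.61 CPM on low salt/enalapril (log2 fold change -0.75 ± 0.32 SE, edgeR unadjusted p 0.0366, adjusted p 0.737). The groups did not overlap for 2 transporters, Abcb1b and Abcc10, which is 6.06% of the tested ones against 4.2% of all genes.

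Whether the diet effect differed between the populations was tested as an interaction, which called 0 of 33 transporters (0% of all genes) in edgeR, in the DESeq2 Wald test and in limma voom. At an unadjusted p under 0.05 edgeR gave 5 (15.2%, against 7.03% of all genes), all with a lower diet effect in macula densa cells (against 3.55% of all genes): Slc22a2, Slc22a5, Slc22a12, Slc47a1 and Abcc2. The differences were -1.64 ± 0.53 for Slc22a5 (SE, edgeR unadjusted p 0.00869), -2.66 ± 0.87 for Abcc2 (p 0.00984) and -1.98 ± 0.84 for Slc47a1 (p 0.0361) on the log2 scale, with edgeR adjusted p of 0.633, 0.633 and 0.688. Abcc2 measured 3.38 and 5.38 CPM in macula densa cells on control diet and 2.49 and 1.97 CPM on low salt/enalapril, beside means of 1.74 ± 1.05 and 5.59 ± 3.31 CPM (SD, n = 4) in control cells. The comparisons of diets and their difference share libraries with the comparisons of cell populations on each diet.

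Genes that work with these transporters were also read: nuclear receptors and other factors that regulate them, PDZ scaffolds that anchor them, carriers that supply their exchange substrates and other ABC transporters. Of 46 such genes 36 were tested. Averaged over both diets 3 of the 36 were called higher in macula densa cells and 4 lower, beside 21.3% of all genes called in either direction. On each diet alone 1 was called higher and 1 lower, beside 6.61% of all genes called on control diet and 7.27% on low salt/enalapril. Slc13a3, the dicarboxylate carrier that supplies the organic anion exchangers, and Abca5 were higher by 1.29 and 1.08 on the log2 scale (edgeR adjusted p 0.0418 and 0.00375). The scaffold Slc9a3r2 (NHERF2), which is also found in glomerular cells, was lower by the largest amount (log2 fold change -3.77 ± 0.67 SE, edgeR adjusted p 0.0028), and Abca3, Abca7 and Tap2 were lower as well. Slc9a3r2 was lowest among control cells in library 4 on control diet, at 10.5 CPM against 109 to 182 CPM in the others of that group, the library with few podocyte and endothelium transcripts. Between the diets none of the 36 was called by edgeR in either population, with 4 in macula densa and 3 in control cells at an unadjusted p under 0.05, beside 11.2% and 6.45% of all genes.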

How the data were processed

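RNA was read as gene counts in 12 libraries of sorted mouse kidney cortex cells. Library preparation used the SMARTer Stranded Total-RNA Pico v2 kit and was simultaneous, per the labels' protocols. The submitters' processing notes name STAR 2.61, Partek and the build mm10, and per those notes no counting setting is known. Reads of antisense partners and of related copies may therefore be shared. The authors deposited estimated counts per gene, of which 16.1% were not whole, and these were rounded before testing. Of 23378 rows, 23351 equalled the symbol, start and end of the GENCODE M21 annotation (GRCm38) once 1 was taken from the end, and all 51 transporters were among them. Sex and age are not in the labels. The Y-linked gene Ddx3y had 50 to 179 counts in 12 of 12 libraries, and the sex-linked gene Xist had counts in 8 of 12, at most 19.

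From these counts, filterByExpr of edgeR 4.0.16 (R 4.3.3; count minimum 10, total minimum 15) kept 14180 genes. CPM and 1 quasi-likelihood fit with a coefficient per group used TMM scaling, with Benjamini-Hochberg adjustment over all genes and a threshold of 0.05. Levels per kilobase used the summed exon length in GENCODE M21. Promoters and motif counts came from a RefSeq table. The fit was tested on simulated counts with known changes, 200 genes above a minimum level changed 4-fold in each of the comparisons simulated. It recovered 88% between populations averaged over both diets and 74.5% between diets in control cells. Between diets in macula densa cells it recovered 42.5%, so absent calls there are weak evidence of no change. Some tested transporters, such as Slc22a2 and Slc22a18 with means of 0.537 and 0.715 CPM over all libraries, lie under that minimum level. Recovery at such levels was not measured. Pairwise count tests found no library deposited more than once. Floors and intervals cover counting error only.

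Transporters and gene lists were chosen with earlier results of these data known. Full statistics went to transporters past the threshold and, where none passed, to the 3 with the smallest unadjusted p; other tested transporters named were given by their values, and those with a fold change or p-value beside them were chosen after their values were seen. Some results are not reported here. Alternatives were DESeq2 1.42.0 size factors and its Wald test, library totals alone, no filter, a mean of at least 5 CPM, leaving out mitochondrial genes, Gm42418 and Mir6236, limma 3.58.1 voom with sample weights, only the groups compared, replicate blocks, and leaving out each library. No column of sample values was left unmapped.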

Additional observations from a re-analysis of the deposited data

Results flagged for a closer look

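In groups of 4 libraries, 4 of 66 sets of values checked had a library far from the other 3 (Dixon's criterion at 95%), and about 3.3 would be marked by chance. Values are log2 CPM with a prior count of 2. Abcc4 was 4.37 in control-cell library 4 on low salt/enalapril, against 4.14 to 4.18 in the others. Control-cell library 4 on control diet held the other 3: Abcc5 was 4.02 against 4.64 to 4.74, Abcg1 was 1.69 against 2.99 to 3.20, and Abcg2 was 1.20 against 2.32 to 2.43. This is the library with few podocyte and endothelium transcripts, whose part in these values was not tested.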

How the results depend on the processing

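Of the single-gene differences given with a fold change or named as past a threshold, that of Slc22a12 between populations on low salt/enalapril (log2 fold change 0.18, not called) changed sign, in 2 of 22 alternatives, down to -0.19. The others kept their sign in the alternatives that tested them, leaving aside Abcc4 between the diets in macula densa cells. Its log2 fold change of -0.06 ± 0.21 (SE) was too near 0 for a sign to be read. The sums of related copies were not recomputed. Averaged over both diets, Slco2a1 and Abcg1 were called in 22 of 22 alternatives, Abcc4 in 20 and Abcc5 in 17 of 22, and Slc22a18 in 17 and Abcb9 in 9 of the 21 that tested them. The count of 6 called transporters (21.3% of all genes) became 10 with library totals alone (23.1%) and 3 with a replicate block on the number in the titles (13.5%), and 3 to 7 with each library left out in turn. The 3 came without macula densa library 2 on control diet (10.4%). On control diet the count of 1 (6.61%) became 2 with library totals alone (6.14%), 2 with no filter (3.67%), 6 with the DESeq2 Wald test (14.1%), 6 with voom (13.5%), 0 with only the groups compared (3.54%), and 0 to 3 with each library left out, with 3 without control-cell library 4 on control diet (17.7%) or macula densa library 1 or 2 on low salt/enalapril (5.58% and 5.62%). On low salt/enalapril the count of 1 (7.27%) became 2 with library totals alone (7.95%), 2 with a mean of at least 5 CPM (11.9%), 5 with the DESeq2 Wald test (13.6%) and 0 with voom (3.64%), and 1 to 4 with each library left out, with 4 without control-cell library 4 on control diet (13.5%). Between diets in macula densa cells the count of 0 became 1 with only the groups compared (0.927%). A count that stayed the same could rest on other genes. On low salt/enalapril Slco2a1 was called in 20 of 23 alternatives. Slc22a21, not tested in the main fit, was called in 2 of 23 there and in 3 of 22 averaged over both diets. The cause of these changes was not tested. Between diets in control cells and for the interaction the count was 0 in all alternatives run.

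The libraries also carry numbers in their descriptions, shared by 4 pairs of libraries; the labels do not say whether a number is an animal. Deviations from group means correlated at 0.075, -0.037, 0.227 and -0.018 within those pairs, and at -0.027, -0.075, 0.252 and -0.227 for equal title numbers. With 2 macula densa libraries a group, whose deviations mirror each other, this check can neither show nor exclude pairing, and the libraries were not treated as paired. With the title number as replicate block, 0 transporters were called on control diet (2.67% of all genes) and 3 averaged over both diets. With the description number as replicate block (8 libraries), 3 were called on control diet (16.2%) and 4 on low salt/enalapril (16%). The same 8 libraries without the block, an alternative added after seeing the data, gave 4 and 4 (17% and 16.7%).

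Depth limits the low genes: 3 counts were worth up to 0.734 CPM, and 18 of 51 transporters could not be tested. Each diet had 2 macula densa libraries.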
